A study of Mus musculus with 6 samples.

Results

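The 40 genes described here encode the enzymes of the tricarboxylic acid (TCA) cycle, the proteins that bring pyruvate into it, the malate-aspartate shuttle, the malic enzymes and the carriers of citrate and dicarboxylates. They were chosen by name, as the pathways that feed or drain the oxaloacetate used by the cytosolic phosphoenolpyruvate carboxykinase PCK1. The rule uses no measured value, but the choice was made with earlier results of these data known. All 40 were on the array, with 64 probes, and all 40 were among the 17135 genes tested. The study measured whole kidneys of C57BL/6J mice killed at 32 weeks on 6 one-colour arrays, 3 labelled WT and 3 labelled Pck1-CKO. Pck1-CKO mice were Pck1 flox/flox with 1 copy of a γGT-Cre transgene, which drives recombination in the renal proximal tubule, so other kidney cells are not targeted. The WT arrays carry the genotype label wild-type. WT controls were littermates of the same age and sex, and the breeding produced controls that were Pck1 flox/flox, Pck1 flox/+ or Pck1 flox/+ with γGT-Cre. Which of these stood behind each WT array is not stated, so the controls may carry floxed alleles or Cre. Whether the 6 arrays stand for 6 mice is not stated either, and the p-values therefore reflect the spread between the samples as labelled, which may be technical.

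Pyruvate enters mitochondria through the pyruvate carrier and is turned into acetyl-CoA by the pyruvate dehydrogenase complex, which its kinases switch off. The cycle oxidises acetyl-CoA and regenerates oxaloacetate. Proximal tubule cells are rich in mitochondria, take up citrate and dicarboxylates from the filtrate, and make glucose by drawing oxaloacetate, exported as malate or aspartate, through PCK1. The comparison of both genotypes asks which transcripts around that withdrawal point differ when Pck1 is targeted.

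Signals are log2 values relative to each array's 75th percentile, changes are Pck1-CKO minus WT with n = 3 per group, and a gene was called at an adjusted p under 0.05 in limma. Between 37118 and 38707 of 56605 probes lay well above background on an array, and the number of arrays limits the precision. Pck1 itself was 6.29, 6.32 and 5.63 in the arrays labelled WT and 6.44, 6.60 and 6.90 in those labelled Pck1-CKO, a log2 change of 0.56 ± 0.22 (SE, limma adjusted p = 0.152). The change was 0.34 without WT 3 and 0.35 with array weights, and Pck1 was called in 0 of 17 alternatives. Whether its only probe lies inside the deleted exons is unknown here, so this signal cannot check the labels, and all directions below are those of the labels. Proximal tubule markers such as Lrp2 and Slc34a1 were well above background on every array, and limma called 0 of 8 (unadjusted p under 0.05 for 1 higher and 1 lower). Fat markers were higher in the arrays labelled Pck1-CKO. Of 6 brown fat markers limma called 5 higher, including Ucp1 by 5.23. The 6 markers had a median log2 signal of -2.97, -0.24 and -0.42 on WT and 3.16, 3.11 and 3.37 on Pck1-CKO arrays. The log2 of their summed signal ran from 4.24 to 4.42 in WT and from 5.64 to 5.76 in Pck1-CKO. Most of the WT sum came from Cox7a1 (4.20, 4.20 and 4.16), which was not called. Of 8 general fat markers limma called 3 higher, and 7 had an unadjusted p under 0.05 and separated upward. Adipoq, Plin1, Cfd and Retn, with changes from 2.94 to 3.22, were not called. The sums ran from 4.05 to 5.09 in WT and from 6.44 to 7.10 in Pck1-CKO. On the WT arrays, Elovl3 was well above background on 0 of 3 and Otop1 and Plin1 on 2 of 3. Of 6 collecting duct markers 2 rose, including Aqp2 by 0.63, and 3 fell, including Slc4a1 with a change of -0.88. All 4 distal convoluted tubule markers had negative changes and 1 fell, Slc12a3 at -0.43. Of 4 thick ascending limb markers 1 rose, Cldn16 at 0.31. Fat cells also express TCA cycle genes, and the part of fat or of other cell types in the values below was not tested. The WT arrays lay in slide row 1 and the Pck1-CKO arrays in slide row 2, so row and genotype cannot be told apart.

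None of the 40 genes was called in limma, against 8.04% of all genes tested (4.34% higher and 3.7% lower). Of all calls 54% were higher, or 81.3% when each array's median was subtracted in place of its 75th percentile. Before adjustment, 6 had a p under 0.05 and were higher (Pdk3, Idh3a, Slc25a10, Pdha1, Sucla2 and Dld) and 2 lower (Pdk1 and Me3), where the shares over all genes were 17.5% and 13.7%. In 8 genes all Pck1-CKO arrays lay above all WT arrays, and in 5 all lay below. Over all genes 21.9% separated upward and 16.4% downward. The counts among the 40 genes, taken as shares of 40, lie below but near these shares, and the differences were not tested. Log2 changes ran from -0.27 for Pdk1 to 0.35 for Slc25a10, with 27 positive and 13 negative, or 35 positive with the median subtracted, which moved the median of all genes to 0.085. Their median was 0.036 against 0.0091 over all genes, and the median absolute change was 0.075 against 0.12. The 40 genes were bright, with a median signal percentile of 94.2 against 50 over all genes. Comparisons with all genes, here and below, were not matched for signal. In whole tissue, fewer cells of a type and less RNA per cell cannot be told apart.

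The 95% interval of the log2 change lay wholly within ±0.25 for 26 of the 40 genes and within ±0.5 for 38. The exceptions to the wider limit were Slc25a10, whose interval ran from 0.12 to 0.58, and Pdk4, whose interval ran from -0.60 to 0.40. Over all genes, 37.2% of intervals lay within ±0.25 and 74.5% within ±0.5. The median standard error was 0.054 for the 40 genes and 0.068 over all genes, most of which were dimmer. Whether equally bright genes have such intervals was not tested.

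**Figure D1:**
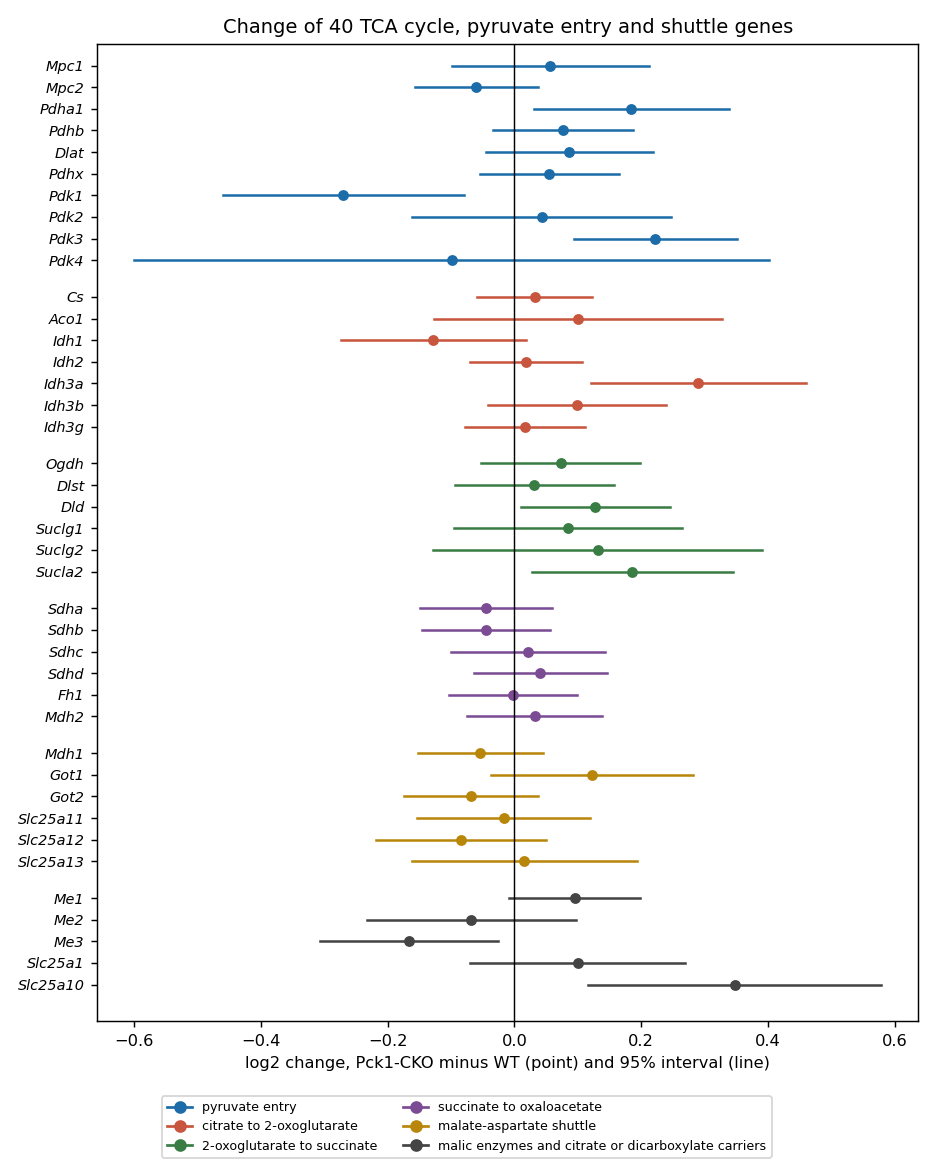
Log2 change of each of the 40 genes, Pck1-CKO minus WT, as a point with its 95% interval from limma (3 arrays per group), coloured by role. Points lie between -0.27 and 0.35, and 32 of the 40 intervals cross 0.

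Pyruvate entry was represented by 10 genes, of which 0 were called in limma (2 higher and 1 lower before adjustment, p under 0.05), with a median log2 change of 0.056. The subunits of pyruvate dehydrogenase all had positive changes. Pdha1, the catalytic E1 alpha subunit, read 4.72, 4.73 and 4.88 on the WT arrays and 4.90, 4.99 and 5.0 on the Pck1-CKO arrays. The groups did not overlap, but WT 3 came just below the lowest Pck1-CKO array. Its log2 change was 0.18 ± 0.062 (SE, limma adjusted p = 0.113). The E1 beta subunit Pdhb also separated, by less, with 0.077 (95% interval -0.033 to 0.19). Dlat, the E2 acetyltransferase, had a change of 0.087 and Pdhx, which tethers the E3 subunit, one of 0.055, both with overlapping groups. Mpc1 and Mpc2 together form the mitochondrial pyruvate carrier. Their changes were 0.056 (interval -0.099 to 0.21) and -0.060 (-0.16 to 0.036), and the sign turned for Mpc1 with the mean of its probes (-0.073) and for Mpc2 with the median subtracted (0.016).

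The 4 pyruvate dehydrogenase kinases, which phosphorylate and inactivate the complex, did not share a direction. Pdk1, an isoform known for its induction by hypoxia, read 1.77, 1.80 and 1.89 on the WT arrays and 1.44, 1.51 and 1.69 on the Pck1-CKO arrays. All Pck1-CKO arrays lay below all WT arrays, with Pck1-CKO 3 nearest to WT. Its log2 change was -0.27 ± 0.077 (limma adjusted p = 0.0818), and it reached -0.34 with adjusted p = 0.0398 without Pck1-CKO 3. Pdk3 read 0.40, 0.37 and 0.51 on the WT arrays and 0.64, 0.68 and 0.62 on the Pck1-CKO arrays. Every Pck1-CKO array was above every WT array, and the WT arrays were spread more widely. The log2 change of Pdk3 was 0.22 ± 0.052 (limma adjusted p = 0.0567), the lowest adjusted p among the 40 genes. Pdk2 had overlapping groups and a change of 0.043 (interval -0.16 to 0.25). Pdk4, the isoform induced by fasting and fatty acids, varied most between replicates, at 1.65, 1.59 and 2.16 on the WT arrays and 1.84, 1.87 and 1.39 on the Pck1-CKO arrays. WT 3 was the highest of all 6 arrays and Pck1-CKO 3 the lowest. The change of -0.099 ± 0.20 had a sign that turned when either array was left out, to 0.082 without WT 3 and 0.058 without Pck1-CKO 3. The difference between Pdk1 and Pdk3 was not tested.

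In the step from citrate to 2-oxoglutarate, 0 of 7 genes were called in limma (1 higher and 0 lower before adjustment, p under 0.05). Idh3a, the catalytic alpha subunit of the NAD-dependent isocitrate dehydrogenase, had the largest change among them. The WT arrays read 4.12, 4.06 and 4.28 and the Pck1-CKO arrays 4.44, 4.50 and 4.39. The groups did not overlap, and WT 3 was again the WT array nearest to Pck1-CKO. The log2 change was 0.29 ± 0.069 (limma adjusted p = 0.0574), a 1.22-fold difference with a 95% interval from 1.09 to 1.38. The other subunits of the same enzyme had smaller values, 0.098 for Idh3b (interval -0.042 to 0.24) and 0.017 for Idh3g (-0.079 to 0.11). Differences between subunits were not tested. Citrate synthase, Cs, read 6.34, 6.37 and 6.39 on the WT arrays and 6.39, 6.42 and 6.40 on the Pck1-CKO arrays, a change of 0.032 (interval -0.059 to 0.12). Its 6 values lie close together, and the groups overlap. The mitochondrial NADP-dependent enzyme Idh2 was as close, at 0.018 (interval -0.071 to 0.11). The cytosolic enzymes were less narrowly measured. Idh1, which makes cytosolic NADPH, lay lower on every Pck1-CKO array, at -0.13 ± 0.059 (limma adjusted p = 0.202). Aco1, the cytosolic aconitase that also acts as an iron-responsive RNA-binding protein, had 0.10 ± 0.092.

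All 6 genes between 2-oxoglutarate and succinate had positive changes on their brightest probe, from 0.031 to 0.19. Limma called 0 of them (2 higher and 0 lower before adjustment, p under 0.05). For Suclg2 the sign depended on the probe, with -0.032 and -0.12 on its other probes and -0.0064 with the mean of its probes. Sucla2, the beta subunit of the ATP-forming succinyl-CoA ligase, read 3.20, 3.29 and 3.38 on the WT arrays and 3.40, 3.53 and 3.50 on the Pck1-CKO arrays. Its groups touched at WT 3 and Pck1-CKO 1 without overlapping, and the log2 change was 0.19 ± 0.064 (limma adjusted p = 0.118). Suclg2, the beta subunit of the GTP-forming ligase, had 0.13 ± 0.10 with overlapping groups, and the shared alpha subunit Suclg1 had 0.085 (interval -0.095 to 0.27). Dld, the E3 subunit used by both the pyruvate and the 2-oxoglutarate dehydrogenases, read 3.67, 3.68 and 3.75 on the WT arrays and 3.76, 3.87 and 3.84 on the Pck1-CKO arrays. It separated narrowly, with a change of 0.13 ± 0.047 (limma adjusted p = 0.136). The E1 and E2 subunits of the 2-oxoglutarate dehydrogenase, Ogdh and Dlst, overlapped between groups, at 0.073 (interval -0.052 to 0.20) and 0.031 (-0.094 to 0.16).

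From succinate to oxaloacetate the groups overlapped in all 6 genes, and 0 were called in limma (0 higher and 0 lower before adjustment, p under 0.05). Mdh2, the mitochondrial malate dehydrogenase that makes oxaloacetate, read 7.55, 7.56 and 7.65 on the WT arrays and 7.61, 7.63 and 7.62 on the Pck1-CKO arrays. The Pck1-CKO arrays lay inside the WT range, and the change was 0.032 (interval -0.074 to 0.14), or 1.02-fold with an interval from 0.95 to 1.1. The flavoprotein and iron-sulfur subunits of succinate dehydrogenase, Sdha and Sdhb, both had -0.045 (0.031 each with the median subtracted), and the membrane anchors Sdhc and Sdhd had 0.022 and 0.040. Fh1, fumarase, had the smallest change of the 40 genes, at -0.0019 (interval -0.10 to 0.099). No interval in this segment reached beyond ±0.15.

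The malate-aspartate shuttle carries reducing equivalents between cytosol and mitochondria, and its enzymes also move oxaloacetate carbon. Of its 6 genes 0 were called in limma (0 higher and 0 lower before adjustment, p under 0.05). Mdh1, the cytosolic malate dehydrogenase, read 6.91, 6.87 and 6.93 on the WT arrays and 6.86, 6.87 and 6.81 on the Pck1-CKO arrays, a change of -0.054 (interval -0.15 to 0.046). A second Mdh1 probe, with signals from 6.71 to 6.87, had a change of opposite sign, 0.040. The aspartate aminotransferases had changes of opposite sign, except with the median subtracted, where Got2 had 0.0079. The cytosolic Got1 had 0.12 ± 0.065 (limma adjusted p = 0.252), with WT 3 inside the Pck1-CKO range. The change of Got1 was 0.071 without WT 1, and with array weights it was 0.17 and passed (adjusted p = 0.0395). The mitochondrial Got2 had -0.068 ± 0.043 (limma adjusted p = 0.327), with all Pck1-CKO arrays just below all WT arrays. The difference between Got1 and Got2 was not tested. The oxoglutarate-malate carrier Slc25a11 had -0.017, and the aspartate-glutamate carriers Slc25a12 and Slc25a13 had -0.084 and 0.016, with overlapping groups in all 3.

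Among the malic enzymes and carriers, 0 of 5 genes were called in limma (1 higher and 1 lower before adjustment, p under 0.05). Slc25a10, the mitochondrial dicarboxylate carrier that exchanges malate or succinate for phosphate, had the largest change of the 40 genes. The WT arrays read 1.73, 1.70 and 1.98 and the Pck1-CKO arrays 2.17, 2.23 and 2.04. The groups did not overlap, and WT 3 and Pck1-CKO 3 lay nearest to each other. The log2 change was 0.35 ± 0.094 (limma adjusted p = 0.0741), 1.27-fold with an interval from 1.08 to 1.49. The citrate carrier Slc25a1 overlapped between groups at 0.10 ± 0.069. Malic enzymes turn malate into pyruvate. Me3, a mitochondrial NADP-dependent form, read 3.52, 3.46 and 3.41 on the WT arrays and 3.27, 3.24 and 3.39 on the Pck1-CKO arrays. All Pck1-CKO arrays were below all WT arrays, with Pck1-CKO 3 close to WT 3, and the change was -0.17 ± 0.057 (limma adjusted p = 0.117). The cytosolic Me1 lay higher on every Pck1-CKO array by a small amount, 0.095 (interval -0.0084 to 0.20). The mitochondrial NAD-dependent Me2 had -0.068 (interval -0.23 to 0.097).

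**Figure D2:**
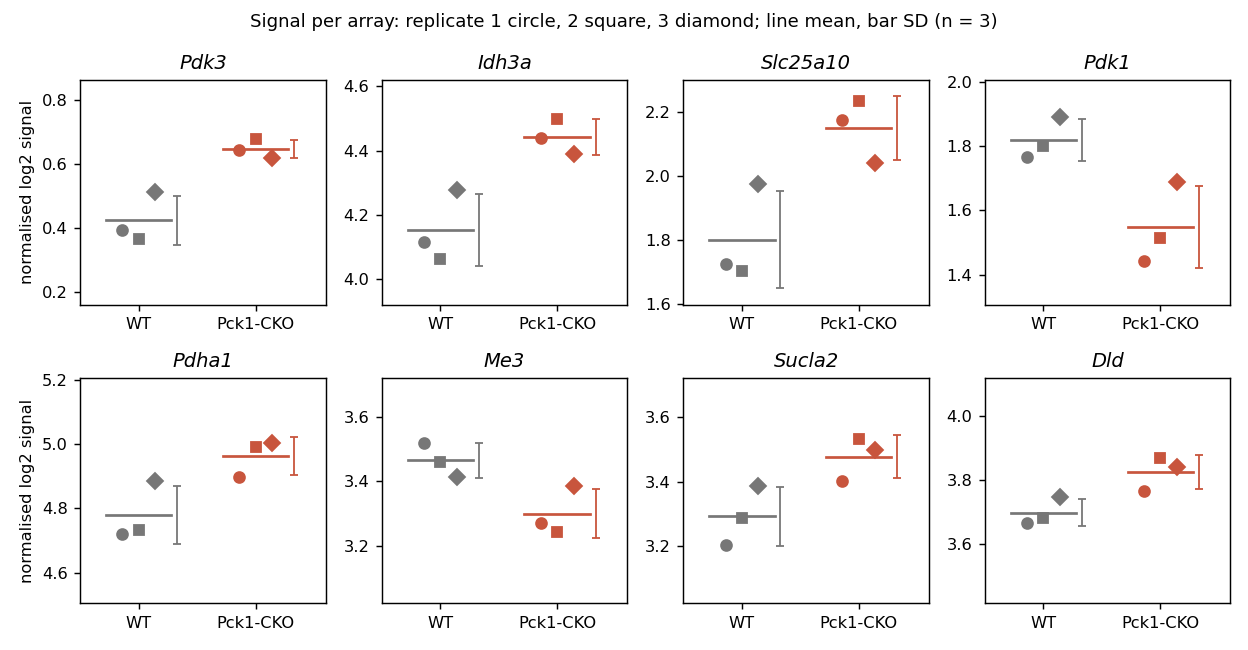
Normalised log2 signal of the 8 genes with the lowest unadjusted p, per array, with the mean (line) and SD (bar) of each group; every panel spans 0.7 log2 units. In all 8 the groups do not overlap, and in 7 of them, all but Me3, WT 3 (diamond) is the highest WT array.

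The array WT 3 stood apart from the other WT arrays in these genes. It held the highest WT value in 37 of the 40 genes, or 92.5%, against 44.3% of all genes tested. The exceptions were Sdhb, Me2 and Me3, in which WT 1 was highest. The median deviation of the 40 genes from their WT mean was 0.081 on WT 3, -0.038 on WT 1 and -0.033 on WT 2, whereas over all genes that of WT 3 was 0.012. On the Pck1-CKO arrays these medians were -0.014, 0.016 and 0.0001. The SD between replicates was larger in WT than in Pck1-CKO for 34 of the 40 genes (85%, against 53.6% of all genes), with a median SD of 0.077 in WT and 0.034 in Pck1-CKO. WT 3 also had the lowest Pck1 signal of the 6 arrays. Its summed fat markers lay between those of the other WT arrays. Its summed proximal tubule markers were the highest of the 6 arrays, 10.11 against 10.01 to 10.10 in the others. By the median of the same markers WT 3 was not the highest. That median was 6.83 on WT 3, 6.77 and 6.68 on WT 1 and WT 2, and 6.98, 6.97 and 6.84 on the Pck1-CKO arrays.

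Leaving out WT 3 raised the median log2 change of the 40 genes from 0.036 to 0.084, and 3 of 40 were then called in limma. These were Idh3a at 0.35 (adjusted p = 0.0381), Pdk3 at 0.27 (adjusted p = 0.0388) and Slc25a10 at 0.43 (adjusted p = 0.0415). That is 7.5%, where 7.99% of all genes were called without WT 3. Without WT 1, WT 2, Pck1-CKO 1 or Pck1-CKO 2, 0 of the 40 were called, at between 0.146% and 0.409% of all genes. Without Pck1-CKO 3 the only call among the 40 was Pdk1, where 8.93% of all genes were called. Other settings that called some of the 40 also called more genes in general. Idh3a and Pdk3 passed with normexp background correction (11.2% of all genes), and Idh3a, Pdk3 and Slc25a10 passed with the median subtracted (17.5%). With array weights 11 of the 40 were called, or 27.5%, at 34.4% of all genes.

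**Figure D3:**
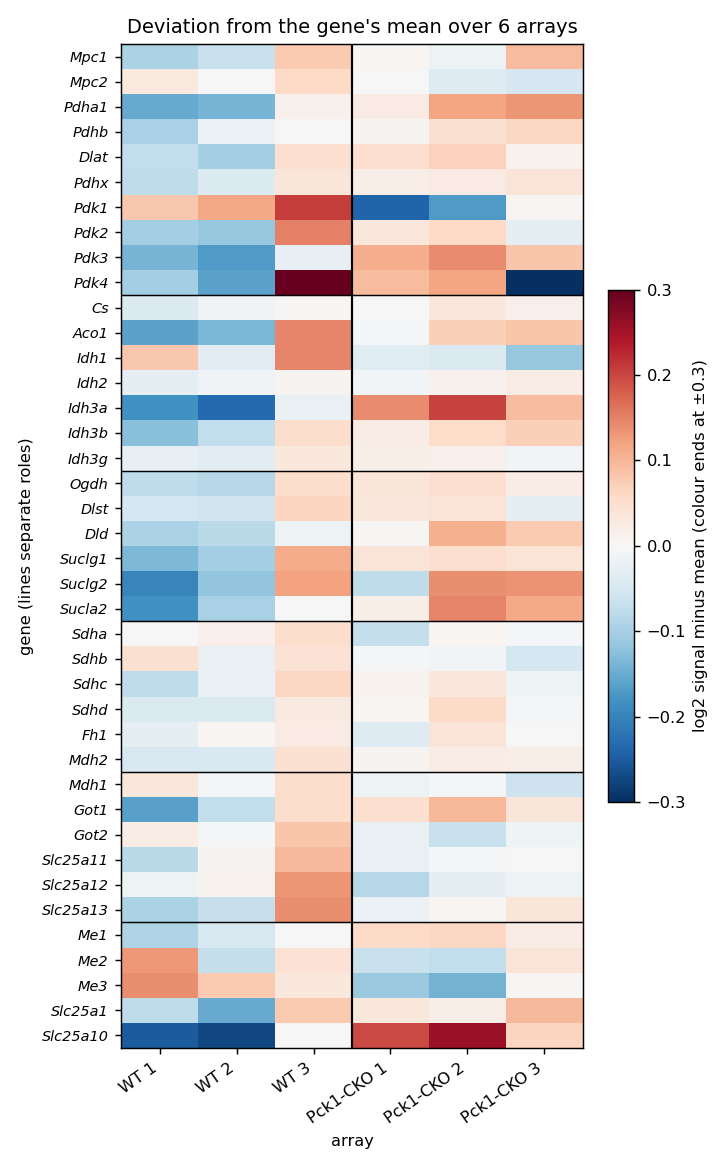
Log2 signal of each of the 40 genes on each array minus the gene's mean over the 6 arrays, in rows ordered by role; red is above and blue below the mean, and the colour ends at ±0.3. WT 3 is redder than WT 1 and WT 2 in most rows, and it has the highest WT value in 37 of 40.

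Of the 40 genes, 19 had 2 or more probes, and 15 of the 24 further probes had the same sign as the brightest probe, which stands for the gene. In 8 genes a further probe had the opposite sign. These were Aco1 (-0.10), Mdh1 (0.040), Me2 (0.0050), Sdha (0.035), Sdhb (0.060), Slc25a11 (0.080), Suclg2 (-0.032 and -0.12) and Mpc1, given below. The lower values of Pdk1 recurred on all 4 of its probes, at -0.27, -0.28, -0.55 and -0.17, and those of Slc25a12 on all 3 of its probes. A second probe of Dlat had 0.20 ± 0.048, with WT at 0.65, 0.72 and 0.73 and Pck1-CKO at 0.88, 0.93 and 0.89 (limma adjusted p = 0.0724 over probes). In a fit over 38365 probes limma called 4.29%, and of the 64 probes of these genes it called 0 higher and 1 lower. That probe (A_66_P126427) is 1 of 3 probes of Mpc1. The WT arrays read -0.20, -0.13 and -0.26 and the Pck1-CKO arrays -0.66, -0.52 and -0.60, clear of any overlap. Its log2 change was -0.40 ± 0.062 (limma adjusted p = 0.0395 over probes), while the other probes of Mpc1 had 0.056 and 0.12. It was singled out after its values were seen, and it no longer passed whichever of the 6 arrays was left out, with adjusted p between 0.0506 without WT 3 and 0.125 without WT 2, while its change stayed between -0.44 and -0.36. Which transcript form each probe reads was not examined.

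**Figure D4:**
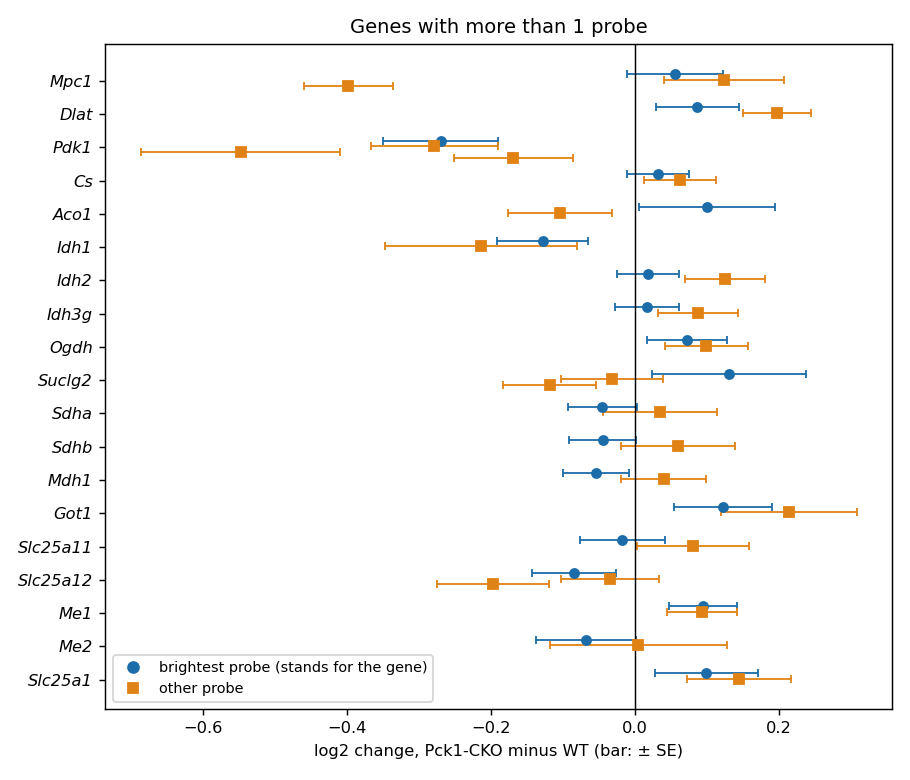
Log2 change, Pck1-CKO minus WT, with its SE for every probe of the 19 genes that had more than 1 probe; circles are the brightest probe of a gene and squares its other probes. The 4 probes of Pdk1 all lie below 0, and 1 of the 3 probes of Mpc1 lies at -0.40 while the others lie above 0.

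Of the 57 genes on lists of reactions that border on the cycle, 55 were tested, 2 rose and 2 fell in limma, and their median log2 change was 0.039. These 4 calls among 55 are near the share called over all genes, 8.04%. By list, 1 of 14 genes around oxaloacetate and pyruvate rose and 1 fell, as did 1 each of 15 genes for cofactors, assembly and regulation. Limma called 0 of 15 genes for glutamate, propionate and ketone entry (1 higher before adjustment) and 0 of 11 of other shuttles and dicarboxylate transport (1 higher and 1 lower before adjustment). Ldhd, the mitochondrial D-lactate dehydrogenase, which makes pyruvate, rose by 0.46 ± 0.046 (adjusted p = 0.0152). The WT arrays read 6.21, 6.18 and 6.2 and the Pck1-CKO arrays 6.69, 6.69 and 6.58, with no overlap and little spread. Dhtkd1, the E1 subunit of the 2-oxoadipate dehydrogenase and a relative of Ogdh, changed by -0.49 ± 0.070 (adjusted p = 0.0275), from 0.78, 0.68 and 0.92 in WT to 0.34, 0.27 and 0.30 in Pck1-CKO. Pck2, the mitochondrial phosphoenolpyruvate carboxykinase, changed by -0.20 ± 0.041 (adjusted p = 0.0447), from 0.95, 0.94 and 0.87 to 0.75, 0.71 and 0.70. Sdhaf2, which attaches the flavin cofactor to SDHA, rose by 0.19 ± 0.040 (adjusted p = 0.0469), from 0.34, 0.35 and 0.39 to 0.58, 0.56 and 0.52. All 4 calls were lost whichever of WT 1, WT 2, Pck1-CKO 1 or Pck1-CKO 2 was left out. In these settings between 0.146% and 0.409% of all genes were called, so most calls over all genes were lost too. There the adjusted p of Ldhd lay between 0.0651 and 0.0801 and that of Dhtkd1 between 0.0705 and 0.118. The calls of Pck2 and Sdhaf2 were also lost without Pck1-CKO 3, at 0.0728 and 0.0538 (8.93% of all genes called). The call of Sdhaf2 was lost without WT 3, at 0.0508 (7.99%). Of 17 alternatives in all, Ldhd was called in 12, Dhtkd1 in 11, Pck2 in 8 and Sdhaf2 in 6, with the same sign in each. Pck2 was not called with the median subtracted, where its change was -0.12 (adjusted p = 0.0778), with the mean of its probes (0.171) or without the filter on dim probes (0.105). Sdhaf2 was not called with quantile normalization (0.051), normexp (0.0948), the mean of its probes (0.106) or no filter (0.109), and Dhtkd1 was not called without the filter (0.0705).

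Promoters were inspected for letters that could be shared by genes of this set, since PCK1 itself is a textbook target of cyclic AMP signalling and TCA cycle genes are textbook targets of estrogen-related receptors. RefSeq windows of the 250 bases before a transcription start (GRCm38.p6) were found for 37 of the 40 genes, all but Idh3a, Sdhc and Me2. The extended estrogen-related receptor element TCAAGGTCA, on either strand, was in the windows of 0 of the 37, against 0.422% of all genes. The cyclic AMP response element TGACGTCA, whose reverse complement is the same, was in the windows of 2 of the 37, Ogdh and Mdh2, or 5.41% against 1.77% of all genes. These matches are descriptions and not shown binding sites. Both genes are shown with the element in capitals. The Mdh2 window lies at chr5:135778399-135778648 on the plus strand, with the element starting 127 bases before the start. The Ogdh window, of the most upstream of its 3 starts whose windows hold the element, lies at chr11:6291347-6291596 on the plus strand, with the element starting 51 bases before that start. Neither gene was called, with log2 changes of 0.032 for Mdh2 and 0.073 for Ogdh.
Mdh2: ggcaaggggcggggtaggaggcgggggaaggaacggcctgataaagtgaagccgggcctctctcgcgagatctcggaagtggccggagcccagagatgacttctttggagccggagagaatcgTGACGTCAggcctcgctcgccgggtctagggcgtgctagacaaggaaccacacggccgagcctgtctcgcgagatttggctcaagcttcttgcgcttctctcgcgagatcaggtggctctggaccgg
Ogdh: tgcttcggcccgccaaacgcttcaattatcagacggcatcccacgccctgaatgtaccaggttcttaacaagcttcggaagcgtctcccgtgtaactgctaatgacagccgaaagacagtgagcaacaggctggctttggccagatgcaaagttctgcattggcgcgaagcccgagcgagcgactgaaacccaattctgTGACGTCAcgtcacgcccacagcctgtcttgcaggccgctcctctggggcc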

How the data were processed

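Whole-kidney RNA of 3 WT and 3 Pck1-CKO samples was measured on 1-colour Agilent arrays. The deposited intensity values came from Feature Extraction 10.7.1.1, which had subtracted background and removed spatial trends, per the file headers. The value table deposited for the series, in which every probe's processed signal was divided by 1 factor per array to give a linear ratio, was an alternative. Spots flagged as outliers were dropped, replicate spots averaged as log2 values, and the 75th percentile of each array subtracted. A probe had to be well above background on 3 or more arrays. Genes were named through RefSeq accessions (GRCm38.p6 table), each by its brightest probe. The model was fitted in R 4.3.3 with limma 3.58.1 (lmFit, eBayes, no covariates), and 2-sided p-values were adjusted by Benjamini-Hochberg over all 17135 genes. Intervals are 95% intervals of that fit. The steps were tested on simulated data with 50 changed genes of each size among 17135. There 14% of log2 changes of 0.25 and 46% of those of 0.5 were called, so genes not called may still differ. Recovery in the measured data, where more genes were called, may differ. The genes and lists were chosen with earlier results of these data known. All 40 genes were named, with Pck1 and the called genes of the bordering lists. Alternatives covered scaling, background correction, filters, probe choice, variance model, a replicate block and each array left out. Normexp used median spot signals.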

Additional observations from a re-analysis of the deposited data

How the results depend on the processing

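Of 40 genes, 24 kept the sign of their change in all 17 alternatives, and the 16 that did not had main changes of at most 0.13 in size. With 0 genes of the 40 called at the main setting, higher and lower calls were 3 and 0 after subtracting the median (17.5% of all genes called), 2 and 0 with normexp (11.2%), 2 and 0 with probes well above background on all arrays (10.8%), 4 and 1 with a trended, robust variance (16.5%), and 9 and 2 with array weights (34.4%). Idh3a and Pdk3 were among them in each of these 5. Leaving out arrays gave 0 to 3 higher and 0 to 1 lower. Over all genes, 743 were higher and 634 lower, against 2434 and 560 after subtracting the median, 1682 and 1149 with the trended variance, 3286 and 2614 with array weights, and 61 and 81 without a filter. Leaving out arrays gave 16 to 779 higher and 9 to 806 lower. With the replicate block 3 were higher and 1 lower, and 0 of the 40 were called. Ldhd, Dhtkd1, Pck2 and Sdhaf2 were not called with the block either (adjusted p = 0.071, 0.0761, 0.0947 and 0.111). For 1 probe of Mpc1, an alternative chosen after seeing the data, the call held with quantile normalization, median subtraction and normexp. Same-numbered arrays did not deviate together (correlations -0.001, -0.115 and -0.023), so the numbers were not used as pairs. The median change of the 40 genes was 0.11 after subtracting the median, which moved the median of all genes from 0.0091 to 0.085.

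The signs that turned belonged to changes of up to 0.13 in size (Suclg2). Subtracting the median shifts the change of every gene by the same amount, and the mean of all probes brings in probes of opposite sign. The cause of the other turns was not tested. After subtracting the median, the change was 0.074 for Fh1, 0.0079 for Got2, 0.022 for Mdh1, 0.0079 for Me2, 0.016 for Mpc2, 0.031 for Sdha, 0.031 for Sdhb and 0.059 for Slc25a11. With array weights it was 0.019 for Fh1, 0.15 for Pdk4 and 0.0010 for Slc25a11. With normexp it was 0.0039 for Fh1 and -0.0074 for Idh3g. With quantile normalization it was -0.015 for Sdhc and -0.037 for Slc25a13. With the mean of all probes it was -0.0020 for Aco1, -0.073 for Mpc1, 0.0077 for Sdhb, 0.032 for Slc25a11 and -0.0064 for Suclg2. On leaving out arrays the change ran from -0.021 to 0.017 for Fh1, -0.0030 to 0.13 for Pdk2, -0.20 to 0.082 for Pdk4, -0.011 to 0.059 for Sdhc, -0.062 to 0.027 for Slc25a11 and -0.028 to 0.090 for Slc25a13. No slide or scan block was fitted, since all arrays shared both.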
